A study of Mus musculus with 3 samples.

Results

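The core pluripotency transcription factors described here are 9 mouse genes: Pou5f1, Sox2, Nanog, Esrrb, Zfp42, Sall4, Nr0b1, Nr5a2 and Utf1. They were read by every non-control probe that the scanner files name with one of these symbols, which gave 12 of 41174 probes and 9 of 27537 gene labels. The same 12 probes carried these names in each of the 3 files. The probe rule used no measured value, but the genes were chosen with earlier results of these data known. They are also well-known ES cell genes, so their height in ES cells describes these arrays and is not independent support. Total RNA, labelled with Cy3, was hybridised to 1-colour Agilent mouse arrays, 1 array for each of 3 samples. The samples were ES cells, mouse embryonic fibroblasts (MEF) described as p53 wt in the series text, and p53-null MEF. All 3 carried a Nanog-GFP reporter. The p53 allele, the construction of the reporter, the embryo age, the passage and the ES cell line are not given in the sources used here, and whether the Nanog probe also reads a reporter transcript was not tested. The series concerns the part of p53 in making induced pluripotent stem cells from fibroblasts.

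Pluripotent mouse cells are held in their state by a small set of DNA-binding proteins that activate each other's genes. Pou5f1 (Oct4) and Sox2 bind DNA side by side at a joined element, and Nanog, Esrrb, Sall4 and Nr5a2 act on many of the same enhancers. Fibroblasts normally keep most of these genes silent, and forced expression of Pou5f1 and Sox2 with other factors is what starts reprogramming.

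Each probe is a 60-base oligonucleotide printed at 1 spot. The sequences below belong to the 3 probes that read well above background in MEF (Sox2, Sall4 probe 2 and Utf1), and to 2 that did not (Pou5f1 and Sall4 probe 1). No base is in capitals, since no stretch of these probes is singled out.
Pou5f1 probe: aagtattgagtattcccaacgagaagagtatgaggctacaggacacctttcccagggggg
Utf1 probe: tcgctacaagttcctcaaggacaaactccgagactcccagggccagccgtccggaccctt
Sall4 probe 2: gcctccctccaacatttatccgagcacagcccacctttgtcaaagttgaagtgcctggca
Sall4 probe 1, first 30 bases: tgcgaccacccaagtattgccaggtcttaa
Sox2 probe, first 30 bases: tggcaatcaaatgtccattgtttataagct

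On mouse build mm8 the Pou5f1 probe lies at chr17:35118388-35118448, the Utf1 probe at chr7:139795541-139795600 and the Sox2 probe at chr3:34843400-34843459, all on the plus strand. The Sall4 probes lie on the minus strand, probe 1 at chr2:168440038-168440097 and probe 2 at chr2:168443877-168443936. They are 3779 bases apart, with probe 1 further downstream. Also on the plus strand are Nanog at chr6:122679692-122679751, Esrrb probe 1 at chr12:87410542-87410601, Esrrb probe 2 at chr12:87404222-87404281 and Nr0b1 at chrX:82448549-82448608. The Nr5a2 probe at chr1:138660737-138660796 and the Zfp42 probes at chr8:44794130-44794189 and chr8:44794170-44794241 are on the minus strand. The Zfp42 probes share 20 bases, tgtgctattgaaggggatgg, and so are not independent readings. Apart from that overlap, no member probe shared a run of 25 bases with another probe of the array. The exons and UTRs they lie in were not worked out, as an mm8 genome was not used here.

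Signals are processed Cy3 intensities in the units of the scanner software. Each log2 difference was taken after division by the 75th percentile of the array, which was 834 units for ES cells, 829 for MEF and 1040 for p53-null MEF. The software marks a spot as well above background, and 26198 to 27954 of 43379 spots per array had this mark. The lowest probe signal with the mark was 10.1 units in ES cells, 12.4 in MEF and 16 in p53-null MEF. Where a fibroblast probe lacked the mark, the ES cell signal was set against the higher of that lowest signal and the probe's own signal, and the fold is written as "at least". Below the mark, 7 of the 12 MEF signals and 6 of the 12 p53-null MEF signals are stand-in values that the software puts in place of a signal lost in background, and are not levels. There was 1 array per group, so no difference between groups could be tested, and the number of arrays limits the precision. The errors given are those of the scanner software's error model, about 10% of a bright signal. ES cells and MEF were on the same slide and p53-null MEF on a different slide, scanned separately, so slide and group cannot be told apart wherever p53-null MEF are compared. Trp53, which encodes p53, had 4902 units in ES cells, 1304 in MEF and 56.3 in p53-null MEF at the probe printed at 10 spots, and 304, 572 and 260 units at its other probe.

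The labelled cell types were checked against marker genes. All 8 ES cell markers on the array were well above background in ES cells, 5 in MEF and 3 in p53-null MEF. Their summed signal, in multiples of the 75th percentile, was 385, 1.5 and 0.581 in the same order, and Gdf3, Dppa4 and Cdh1 lacked the mark in both fibroblast samples. Of 10 fibroblast markers, 10 were well above background in MEF and in p53-null MEF, and 9 in ES cells. Their sums were 600, 453 and 8.3, and Lum, a proteoglycan of connective tissue, lacked the mark in ES cells.

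All 12 probes of the core factors were well above background in ES cells, 3 in MEF and 2 in p53-null MEF. The 3 in MEF were Sox2, Sall4 probe 2 and Utf1, and Utf1 lacked the mark in p53-null MEF. The mark was present in ES cells alone for 9 of 12 probes, against 6.39% of 41050 probes with a value on every array. By the brightest probe of each gene this held for 7 of 9 genes, against 6.51% of all genes. Sall4 is among the 7 by probe 1, although its probe 2 had the mark in both fibroblast samples. With a weaker mark of the software, a signal that is positive and significant, 5 probes were counted in MEF, Nanog and Nr5a2 being added. In p53-null MEF that mark gave 6, with Nanog, Nr5a2, Utf1 and Sall4 probe 1 added.

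**Figure D1:**
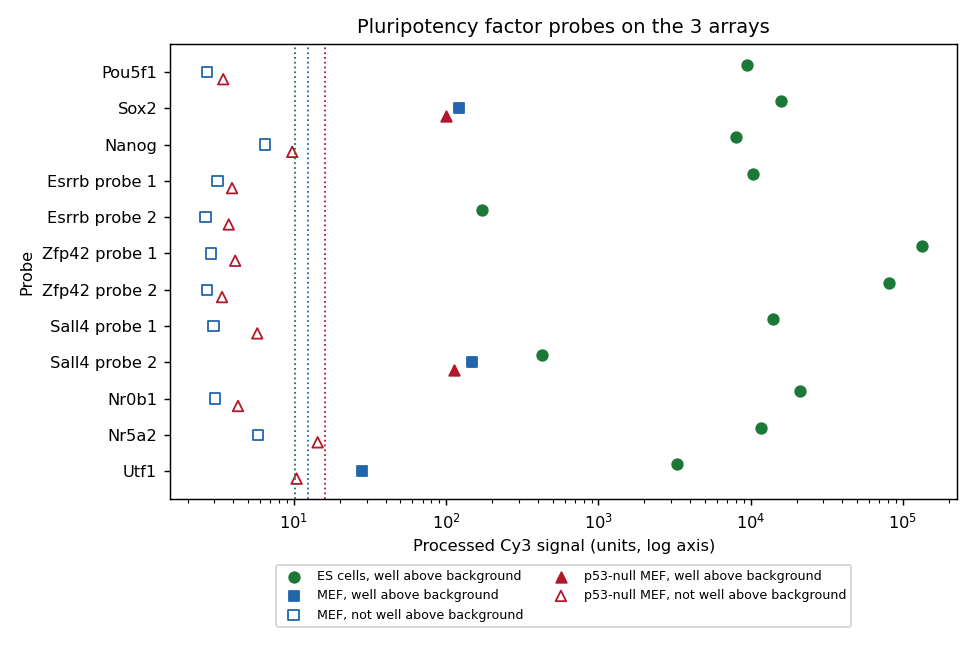
Processed Cy3 signal (units, log axis) of the 12 probes on the ES cell, MEF and p53-null MEF arrays, 1 spot each; filled symbols are well above background, open symbols are not, and the dotted lines give the lowest signal with that mark on each array (10.1, 12.4 and 16 units). At each of the 12 probes the ES cell point lies to the right of both fibroblast points, and only Sox2, Sall4 probe 2 and, in MEF, Utf1 have filled fibroblast symbols.

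The comparison of ES cells with MEF sets the pluripotent state beside the kind of cell from which reprogramming starts. ES cells exceeded MEF by 2-fold or more at 12 of 12 probes, as at 33.8% of 28377 probes with a value, and by 100-fold or more at 10 of 12, as at 0.518%. Of the others, Sall4 probe 2 was measured under 100-fold. Esrrb probe 2 gave only a bound, at least 13.9-fold, which does not reach 100-fold and does not show a value under it. Taking for each gene the probe with its highest signal on any array, 9 of 9 genes passed 2-fold (33.1% of 18674 genes) and 9 of 9 passed 100-fold (0.696%). Their median log2 difference was 9.70 with 7 of the 9 at their bound, beside 0.21 over all genes. The count past 100-fold depended on the processing. With normexp background correction it was 8 of 12 probes and 7 of 9 genes, Sox2 and Utf1 being under it, where 0.137% of all probes passed. With median scaling it was 9 of 12 and 8 of 9, Utf1 being under it. By the mean of the probes of a gene it was 8 of 9. The Sall4 mean, which includes a bound, did not reach it.

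Against p53-null MEF, the same ES cell array was 2-fold or more above at 12 of 12 probes, as at 27.5% of 27893 probes, and 100-fold or more at 10 of 12, as at 0.498%. By gene, 9 of 9 passed 2-fold (27.3% of 18287 genes) and 9 of 9 passed 100-fold (0.689%), with a median of 9.65, 8 of the 9 at their bound, beside 0.19. With normexp correction 9 of 12 probes and 8 of 9 genes passed 100-fold, and with spike-in scaling 8 of 12 and 7 of 9, where 0.174% of all probes did. The bound of Utf1 did not reach it in either, and Sox2, a measured value, was under it with spike-ins. By the mean of the probes of a gene it was again 8 of 9, without Sall4, whose mean includes a bound. Both comparisons use the one ES cell array, so neither supports the other.

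Pou5f1, the POU-domain factor that the pluripotent epiblast requires, had 9504 units in ES cells, 2.68 in MEF and 3.43 in p53-null MEF. Both fibroblast values are stand-ins for a signal lost in background. ES cells were at least 764-fold above MEF and at least 740-fold above p53-null MEF. These bounds were 153-fold and 172-fold with normexp correction, and the second was 222-fold with spike-in scaling.

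Sox2, the HMG-box partner of Oct4 that is also made by neural progenitors and glial precursors, had 15830 units in ES cells, 122 in MEF and 99.1 in p53-null MEF. All 3 signals were well above background, with the fibroblast signals close to each other and far below ES cells. ES cells differed from MEF by 7.0 ± 0.21 on the log2 scale, or 128-fold, and from p53-null MEF by 7.64 ± 0.21, or 199-fold. With normexp correction the first was 88.1-fold and the second 113-fold, and with spike-in scaling the second was 59.7-fold. Sox2 lies within an intron of the long non-coding gene Sox2ot, which has 3 probes on the array. One read 283 units in ES cells, the others lacked the mark there, and none of the 3 had it in either kind of fibroblast, with signals of 2.48 to 6.69 units.

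Nanog, a homeobox factor that stabilises self-renewal, had 7946 units in ES cells, 6.44 in MEF and 9.74 in p53-null MEF. The fibroblast signals carried the weaker mark but not the stronger one. ES cells were at least 639-fold above MEF and at least 619-fold above p53-null MEF. With normexp correction the bounds were 123-fold and 139-fold, and with spike-ins the second was 185-fold.

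Esrrb, an orphan nuclear receptor that can sustain self-renewal, had 10349 units in ES cells at probe 1, 3.15 in MEF and 3.92 in p53-null MEF. This put ES cells at least 832-fold above MEF and at least 806-fold above p53-null MEF. Esrrb probe 2, assigned to a retina cDNA and 6260 bases away, had 173 units in ES cells, 2.63 in MEF and 3.73 in p53-null MEF. There the bounds were 13.9-fold and 13.5-fold. Normexp correction gave 154-fold and 170-fold at probe 1 and 3.70-fold and 4.10-fold at probe 2, and spike-ins gave 242-fold and 4.04-fold over p53-null MEF. The probes gave the same direction, and the smaller bounds at probe 2 follow from its lower ES cell signal, since both are set against the same floor.

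Nr0b1 (Dax1), a nuclear receptor without a classical DNA-binding domain that interacts with Oct4, had 21000 units in ES cells, 3.02 in MEF and 4.29 in p53-null MEF. ES cells were at least 1688-fold and at least 1635-fold above them, or 302-fold and 335-fold with normexp correction and 490-fold over p53-null MEF with spike-ins. Nr5a2 (Lrh-1), a nuclear receptor that binds control regions of Pou5f1, had 11720 units in ES cells, 5.81 in MEF and 14.3 in p53-null MEF. The last value lay just under the lowest well-marked signal of its array, 16 units. ES cells were at least 942-fold above MEF and at least 913-fold above p53-null MEF, or 159-fold and 173-fold with normexp correction and 274-fold over p53-null MEF with spike-ins.

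Among the zinc finger genes, Zfp42 (Rex1), a marker of naive ES cells, had 132583 units in ES cells at probe 1, 2.86 in MEF and 4.11 in p53-null MEF. At the overlapping probe 2 the signals were 80419, 2.68 and 3.37 units. These were the largest bounds of the set, at least 10655-fold and 6463-fold over MEF and at least 10325-fold and 6262-fold over p53-null MEF. With normexp correction they were 2111-fold and 1242-fold over MEF and 2336-fold and 1409-fold over p53-null MEF, and with spike-ins 3094-fold and 1877-fold over p53-null MEF.

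Sall4, a spalt-family factor that binds regulatory DNA of Pou5f1, read differently at its 2 probes. Probe 1 had 13946 units in ES cells, 2.96 in MEF and 5.74 in p53-null MEF, so ES cells were at least 1121-fold and at least 1086-fold above, or 215-fold and 233-fold with normexp correction and 326-fold over p53-null MEF with spike-ins. Probe 2 had 428 units in ES cells, 147 in MEF and 113 in p53-null MEF, all well above background. Its log2 difference was 1.53 ± 0.21 from MEF, or 2.89-fold, and 2.23 ± 0.21 from p53-null MEF, or 4.70-fold. With spike-in scaling the second was 0.50, or 1.41-fold, and so under 2-fold.

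The ES cell difference was larger at Sall4 probe 1 than at probe 2 by at least 8.60 on the log2 scale against MEF and at least 7.85 against p53-null MEF. The error model gave ±0.21 for probe 2 in each comparison. Its errors for probe 1, ±1.44 and ±0.93, belong to ratios with the probe's own fibroblast signals and not to these bounds. The MEF signal of probe 1 is a stand-in value. The newer design file assigns probe 1 to NM_175303 (transcript variant a) and probe 2 to NM_201395 (variant b), and lists both of these with NM_201396 for each probe. An older annotation, used for ES cells and MEF, names probe 1 Sall4 but assigns it to a cDNA described as the product of another gene. A single Sall4 value depends on the probe taken: probe 1 has the highest signal on any array, while averaging log2 signals over the arrays puts probe 2 first and gives 1.53 from MEF. The mean of both probes is at least 5.83, since probe 1 gives a bound.

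Utf1, a chromatin-bound factor of undifferentiated cells, had 3269 units in ES cells, 28 in MEF and 10.4 in p53-null MEF. The MEF signal was low but well above background, and the p53-null signal was not. ES cells differed from MEF by 6.86 ± 0.24 on the log2 scale, or 116-fold, and were at least 255-fold above p53-null MEF. With normexp background correction, which compresses low signals, the difference from MEF was 5.14, or 35.3-fold, and the bound over p53-null MEF was 53.3-fold. With spike-ins that bound was 76.3-fold.

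**Figure D2:**
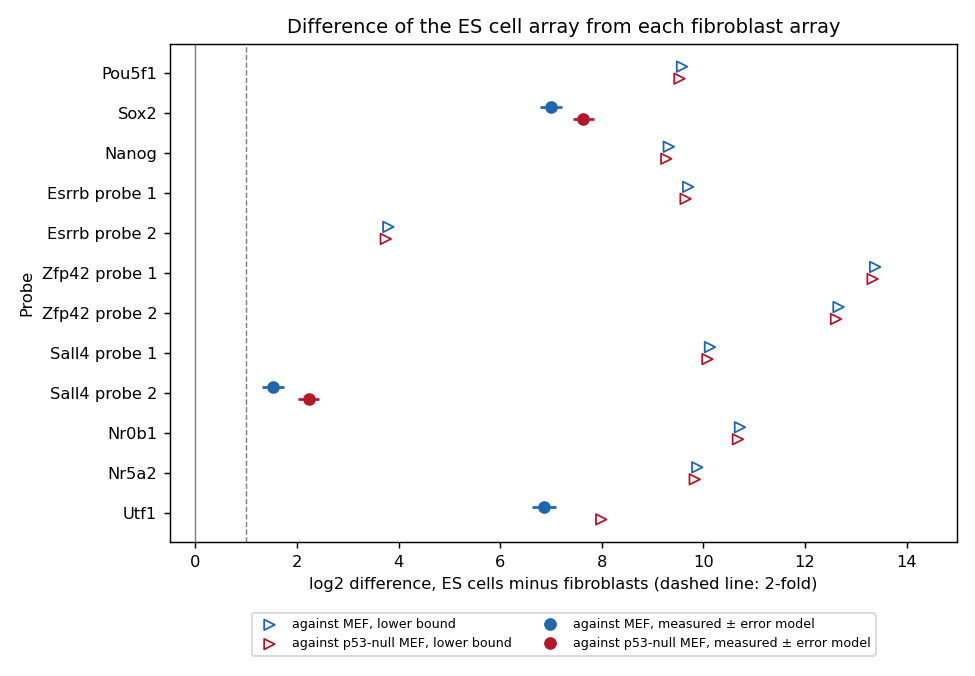
log2 difference of the ES cell array from the MEF array (blue) and from the p53-null MEF array (red) for each of the 12 probes; filled circles with bars are measured differences with the error model, and open triangles are lower bounds, where the fibroblast signal was not well above background. Every value lies right of the dashed 2-fold line, with Sall4 probe 2 nearest to it (1.53 and 2.23) and Zfp42 probe 1 farthest (13.38 and 13.33).

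Setting p53-null MEF beside MEF asks whether fibroblasts without p53 have other levels of these factors before reprogramming. No value could be given for 9 of the 12 probes, which were below the mark in both: Pou5f1, Nanog, Nr0b1, Nr5a2, both probes of Esrrb and Zfp42, and Sall4 probe 1. The remaining 3 were lower in p53-null MEF, 1 of them by 2-fold or more, a fold reached downward by 16.6% and upward by 19% of 26525 probes. With the weaker mark 6 probes had a value, and those added were higher in p53-null MEF by their own signals. Nr5a2 was at 0.97 on the log2 scale, Sall4 probe 1 at 0.63 and Nanog at 0.27. Their errors were ±0.91, ±1.7 and ±0.83, and the MEF signal of Sall4 probe 1 is a stand-in value.

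Sox2 had 122 units in MEF and 99.1 in p53-null MEF, a scaled log2 difference of -0.63 ± 0.21 (1.55-fold lower), and Sall4 probe 2 had 147 and 113 units, a difference of -0.70 ± 0.21 (1.63-fold lower). Utf1 had 28 and 10.4 units, at least 2.20-fold lower, a bound of -1.14. Before background was subtracted, mean spot signals in MEF and p53-null MEF were 66.7 and 66.5 units for Utf1. They were 141 and 146 for Sox2, and 185 and 175 for Sall4 probe 2. Local background was higher on the p53-null MEF array, 44 units beside 24.5 at Utf1, and 44 beside 27 at the median spot. What part background has in these differences was not tested. With normexp correction the Utf1 bound was 1.51-fold. Differences of this size are common between these arrays, as the shares above show, and without replicates they were not tested. Among probes printed at 10 spots and reading 50 to 200 units, the median SD between spots was 8.05% in MEF and 6.6% in p53-null MEF, which covers error within an array alone.

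The sign of these differences depended on the scaling. Scaling on spike-in control probes put Sox2 at 1.34 and Sall4 probe 2 at 1.27, gave Utf1 no value, and moved the median of all probes from 0.04 to 2.10. Relative to the median of all probes Sox2 stood at -0.68 as reported and at -0.76 with spike-ins, and Sall4 probe 2 at -0.75 and -0.83. With normexp correction these were smaller, -0.34 for Sox2 and -0.44 for Sall4 probe 2.

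**Figure D3:**
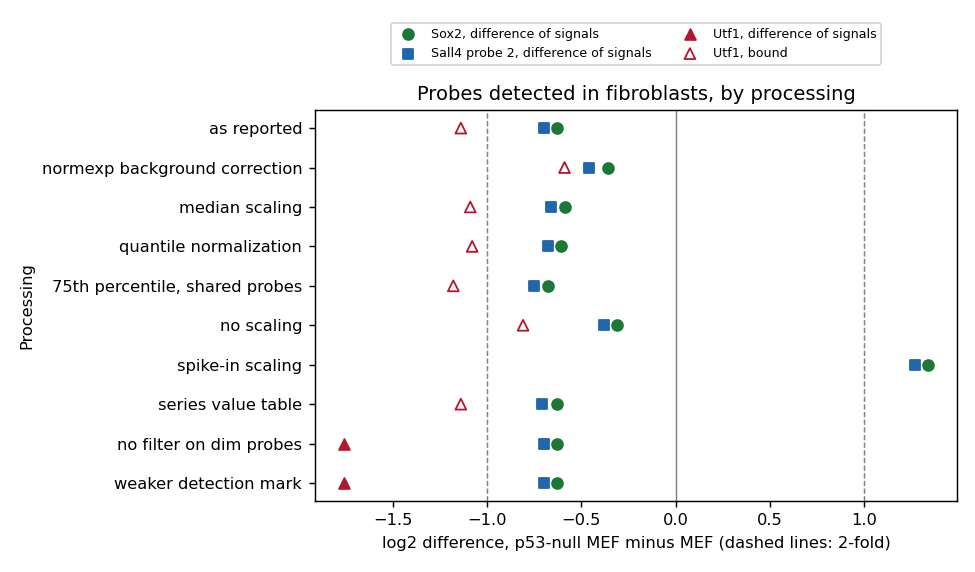
log2 difference of p53-null MEF minus MEF for Sox2 (green circles), Sall4 probe 2 (blue squares) and Utf1 (red triangles, open where the value is a bound) under each processing, with the reported setting at the top and dashed lines at 2-fold. Values lie below 0 in each processing drawn except spike-in scaling, where Sox2 is at 1.34 and Sall4 probe 2 at 1.27.

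Marker genes of other cells that can make these factors also differed between the fibroblast samples. Of 7 Schwann cell and neural crest markers, 6 were well above background in MEF and 4 in p53-null MEF, with summed signals of 6.14 and 0.675 multiples of the 75th percentile. The 6 with a value were each lower in p53-null MEF by 2-fold or more, as were 16.8% of all genes, with a median of -2.39. Of the 6, 2 were bounds (Sox10 and Foxd3), and Erbb3 was at -1.65 by its brightest probe and 0.36 by another. S100b, a calcium-binding protein of glia, had 3664 units in MEF and 551 in p53-null MEF. Sox10, a factor of neural crest and glia, had 186 units in MEF and 16.8, without the mark, in p53-null MEF. Ngfr, a neurotrophin receptor, was at -5.95 by its brighter probe and -0.42 by the other.

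Of 6 neural progenitor markers, 2 were well above background in each fibroblast sample, with sums of 2.85 in MEF and 6.89 in p53-null MEF. They were Nes, with 2202 units in MEF and 6923 in p53-null MEF, a difference of 1.33, and Fabp7, with 143 and 218, a difference of 0.28. So 1 was higher in p53-null MEF by 2-fold or more and 0 lower, beside 18.7% and 16.8% of all genes. Sox1, Pax6, Olig2 and Gfap lacked the mark in both. Of 6 primordial germ cell markers, 2 had it in each, with sums of 0.971 and 0.481, but not the same 2. Ddx4 had it in both, with 758 units in MEF and 451 in p53-null MEF, a difference of -1.08. Dazl had it in MEF alone, a bound of -1.39, and Prdm1 in p53-null MEF alone, a bound of 0.44. Of these 3, 2 were lower in p53-null MEF by 2-fold or more and 0 higher, beside 16.8% and 18.7% of all genes. Dppa3, Tfap2c and Kit lacked the mark in both. The part of such cells in the Sox2, Sall4 and Utf1 values was not tested. In these bulk samples fewer cells of a type and less RNA per cell cannot be told apart.

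The genes around the core set were described from 4 lists, by the probe with the highest signal of each gene. The lists were chosen with earlier results of these data known. Partner factors act beside the core factors at their target genes. Of 18 on the array, 14 were higher in ES cells than in MEF by 2-fold or more (33.1% of all genes were), 1 was lower (27.5%) and 3 were neither, with a median log2 difference of 4.42 beside 0.21 over all genes. Stat3, the effector of LIF signalling, had 6359 units in ES cells and 21160 in MEF, a difference of -1.74, and its other probe was at -0.53. Otx2, a factor of primed pluripotency, and Zscan4c, of a cluster of near-identical genes that the probe may not separate, were higher by at least 6.93 and 8.61. Against p53-null MEF, 15 of 18 were higher and 0 lower (27.3% and 24.2% of all genes), with a median of 4.55.

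Of 15 downstream targets on the array, 14 were higher in ES cells than in MEF by 2-fold or more and 1 lower, beside 33.1% and 27.5% of all genes, with a median of 7.89. Tdh, which encodes threonine dehydrogenase, had 168690 units in ES cells and 15.3 in MEF, a difference of 13.42 whose MEF signal lay near the lowest marked one. Dppa4, a chromatin-bound ES cell protein, and Gdf3, a TGF-beta family ligand, were higher by at least 9.85 and 8.03. Spp1, which encodes osteopontin and is also made by bone cells, had 50572 units in ES cells and 110938 in MEF, a difference of -1.14. Against p53-null MEF the counts were 14 and 1, beside 27.3% and 24.2%, with a median of 7.98.

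Of 6 genes known to repress Pou5f1 or Nanog or to oppose them in early lineages, 2 were higher in ES cells than in MEF, 3 lower and 1 neither, beside 33.1% higher and 27.5% lower over all genes, with a median of -0.93. The count of 2 higher is near the share over all genes. Nr6a1 (GCNF), a nuclear receptor that silences Pou5f1 on differentiation, had 991 units in ES cells and 48.2 in MEF, a difference of 4.35. Nr2f2 (COUP-TFII), a nuclear receptor of mesenchyme, had 244 and 4307 units, a difference of -4.15, and its relative Nr2f1, without the mark in ES cells, had a bound of -2.14. Cdx2, the trophectoderm factor that opposes Oct4, had 71.2 units in ES cells and was higher by at least 2.52. Against p53-null MEF the counts were also 2 and 3, beside 27.3% and 24.2%, with a median of -1.36.

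Family relatives belong to the protein family of a core factor. Of 24 on the array, 20 had a value, and of these 10 were higher in ES cells than in MEF by 2-fold or more, 5 lower and 5 neither, with a median of 0.84. Over all genes 33.1% were higher and 27.5% lower, so the lower count is near that share. Pou3f1 (Oct6), a POU factor of primed pluripotent cells and of glia, had 28671 units in ES cells and 74 in MEF, a difference of 8.59, and Sall3 was higher by at least 8.23. Pou6f1 had 35.6 and 321 units, a difference of -3.18. Pou3f3 was higher by at least 5.15 at its brighter probe and at -0.71 at the other. Against p53-null MEF the split was again 10, 5 and 5, beside 27.3% higher and 24.2% lower, with a median of 1.07.

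**Figure D4:**
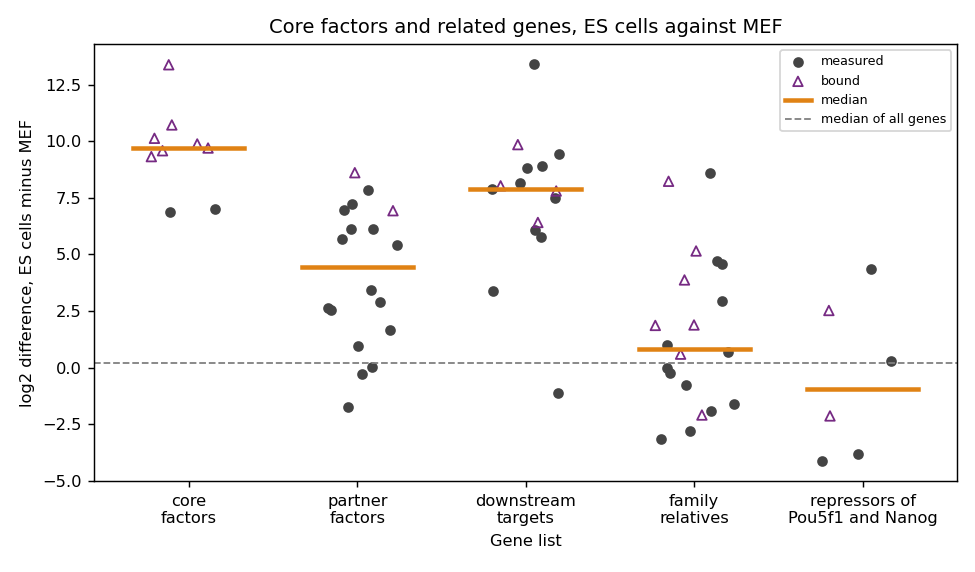
log2 difference of ES cells minus MEF for the 9 core factors and for the genes of 4 lists, each gene by its probe with the highest signal; dots are measured values, open triangles are bounds, orange bars are medians and the dashed line is the median of all genes, 0.21. The medians are 9.70 for core factors, 4.42 for partner factors, 7.89 for downstream targets, 0.84 for family relatives and -0.93 for repressors.

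Between the fibroblast samples the lists had small medians, from -0.42 to 0.37. Partner factors were at -0.22 over 16 genes, 2 higher and 4 lower in p53-null MEF by 2-fold or more, where 18.7% and 16.8% of 17376 genes were. Klf4, itself a reprogramming factor, had 45701 units in MEF and 9144 in p53-null MEF, a difference of -2.65, and Rif1, a factor of replication timing, had 189 and 877 units, a difference of 1.89, with 2.78 at its other probe. Foxd3, a factor of pluripotent and neural crest cells, was at -1.73, a bound. Downstream targets were at -0.42 over 11 genes, 1 higher and 3 lower, with Tdgf1, a Nodal co-receptor, at a bound of -1.71. Dppa5a, an RNA-binding protein of ES cells, had 554 units in MEF and 196 in p53-null MEF, a difference of -1.83, with -0.89 at its other probe. Dnmt3b, a DNA methyltransferase, had 46.7 and 183 units, a difference of 1.65.

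Repressors were at 0.37 over 5 genes, none of them past 2-fold, and Nr6a1 had the largest difference, 0.61. Family relatives were at -0.37 over 14 genes, 4 higher and 4 lower, beside 18.7% and 16.8% of all genes. Sox11, a factor of neural and mesenchymal progenitors, had 194 units in MEF and 1597 in p53-null MEF, a difference of 2.71, while its other probes ran from -1.22 to 2.18, and Pou4f1 was at -1.72. Nr5a1, a steroidogenic relative of Nr5a2, had a bound of -0.68. These signs hold relative to the other probes, whose median moved to 2.10 with spike-in scaling.

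Genes with the most similar pattern were found by the distance between pairs of log2 differences, ES cells from each fibroblast array, among named genes with the same marks on the 3 arrays. For Pou5f1 the nearest of 1143 candidates were Fam169a, Gtsf1l and Rbmxl2, at distances of 0.032, 0.27 and 0.37. For Sall4 probe 1 they were Gbx2, Trap1a and Cdh1 (E-cadherin), at 0.025, 0.055 and 0.25. Such pairs are bounds, so the likeness is mostly that of the ES cell signal. For Sox2, among 12314 candidates measured on all 3 arrays, they were Slc39a4, 1700066C05Rik and Zscan10, a zinc finger factor of ES cells, at 0.17, 0.26 and 0.31.

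Promoter windows of 300 bases, from 250 before to 50 after an annotated start, were taken from RefSeq on GRCm38.p6, which held 12 windows for 8 of the 9 genes, Sall4 not among them. They are given because these genes were high together in ES cells. The joined Sox and octamer element, searched as CATTGT, any base, then ATGCAAA on both strands, was in 2 windows. Both are windows of Nanog that overlap and hold the same element, and they were the only ones among 32851 windows (0.00609%). The letters were chosen knowing the Nanog promoter element, so its presence there is no finding. It begins 75 bases before the start of the first Nanog window, whose upstream bases at chr6:122707239-122707488, plus strand, follow. The element lies on the strand opposite to the gene, so the capitals show its reverse complement.
Nanog upstream: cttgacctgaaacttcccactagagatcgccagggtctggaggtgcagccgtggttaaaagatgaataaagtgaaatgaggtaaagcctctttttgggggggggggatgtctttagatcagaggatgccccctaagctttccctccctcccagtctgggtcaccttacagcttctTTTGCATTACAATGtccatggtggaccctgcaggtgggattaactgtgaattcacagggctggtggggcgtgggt

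The octamer ATGCAAAT, the site of POU factors, was in the window of Zfp42 and in no other member window, against 1.74% of all windows. It begins 186 bases before the start, and the upstream bases at chr8:43307010-43307259, minus strand, follow in the direction of the gene. This match too is on the opposite strand, and the capitals show its reverse complement.
Zfp42 upstream: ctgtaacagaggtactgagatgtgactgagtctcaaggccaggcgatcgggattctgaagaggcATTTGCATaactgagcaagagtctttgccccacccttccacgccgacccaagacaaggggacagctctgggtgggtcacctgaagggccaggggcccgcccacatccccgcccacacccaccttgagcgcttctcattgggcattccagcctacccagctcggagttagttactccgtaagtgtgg

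The first 7 bases of the octamer, ATGCAAA, which are part of both motifs above, were in 4 of 12 windows, of Nanog, Sox2 and Zfp42, against 4.63% of all windows. The Sox core CATTGT, also part of the joined element, was in 4 of 12, of Esrrb, Nanog and Pou5f1, against 12.6%, and the match of Esrrb itself lies after the start. The Pou5f1 match lies in the downstream one of its windows, with upstream bases at chr17:35508557-35508806, and the other Pou5f1 window held none. Both counts include the overlapping Nanog windows, which hold the same match. The Esrrb site TCAAGGTCA was in 0 of 12, against 0.423%. These are matches of letters on both strands, and neither a match nor its lack shows whether a factor binds.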

How the data were processed

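Each deposited scanner file holds unlogged intensities per spot. Per the file headers, the authors read the images in Agilent Feature Extraction 9.5.3.1, which subtracted background and a spatial trend. The deposited value table of the series held the same intensities (ratios of 0.995 to 1.005 over 45018 rows, so not logged, centred or given a direction), with medians of 50 for ES cells, 43.2 for MEF and 51.8 for p53-null MEF.

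Processed signals were put on the log2 scale after division by the 75th percentile of the 43379 non-control spots. Outlier spots were left out (176 in ES cells, 192 in MEF, 62 in p53-null MEF). Spots of a probe were averaged, and a probe passed as well above background when 50% or more of its spots did. Names came from RefSeq (GRCm38.p6) by accession (24375 probes), symbol (6301) or unique synonym (2426), and 8072 kept the file's name. Work was done in Python 3.11.15 with pandas 2.3.3, and in R 4.3.3 with limma 3.58.1 for normexp (offset 50). The difference calculation was tested on simulated data. Alternatives were other background corrections, scalings, detection marks and probe choices, and the value table.

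The members and lists were chosen with earlier results of these data known. Genes named beyond the 9 were, per list, those with the largest measured difference each way and the largest bounds, and the 3 nearest patterns of Pou5f1, Sox2 and Sall4. A gene that this rule named is not reported here. The marker genes named, Sox2ot, and the motifs were picked after values or sequences were seen.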

Additional observations from a re-analysis of the deposited data

How the results depend on the processing

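ES cells stayed above MEF by 2-fold or more at 12 of 12 probes under each of 9 settings that keep probes apart, and at 9 of 9 genes with the mean, the median or the highest-mean probe of a gene, the last added after seeing the data. Against p53-null MEF the counts were the same except 11 of 12 with spike-in scaling, where Sall4 probe 2 stood at 0.50. Sizes moved more: from 7.26 to 11.78 (log2, ES cells minus MEF) for Pou5f1, 6.46 to 7.24 for Sox2 and 1.22 to 1.77 for Sall4 probe 2. Normexp correction gave the low end of each, and values without a floor, which rest on stand-in signals, the high end for Pou5f1. Past 100-fold, the genes numbered 7 to 9 of 9 in each ES cell comparison over all settings. The count of probes past 2-fold between p53-null MEF and MEF, 1 as reported, was 0 with normexp, 0 without scaling and 2, both higher, with spike-ins. The weaker mark counted 5 probes in MEF and 6 in p53-null MEF. Over all probes, the shares higher and lower by 2-fold moved with scaling: for ES cells against p53-null MEF from 27.5% and 22.9% to 22.1% and 27.9% (median), 21% and 29.1% (none) and 6.19% and 66.7% (spike-ins), and for p53-null MEF against MEF from 19% and 16.6% to 28.1% and 10.9% (none) and 84.1% and 1.49% (spike-ins). Why the spike-ins differ was not tested. Probes below the mark in both fibroblast samples could show no difference at this signal. No paired analysis was possible because each group had 1 array.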

Other observations

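Genes of early differentiation were read beside the core factors. Of 12 such markers, 10 were well above background in ES cells, 3 in MEF and 5 in p53-null MEF, with summed signals of 2.04, 2.69 and 3.88 multiples of the 75th percentile. Pax6, a factor of eye and neural development, had 816 units in ES cells and lacked the mark in both kinds of fibroblast. Gata6, a factor of primitive endoderm, had 108 units in ES cells and 1531 in MEF. Eomes, a factor of trophoblast and early mesoderm, had 112 units in ES cells, 138 in p53-null MEF and no mark in MEF. Gata4 and Mixl1 lacked the mark on every array. All 6 primordial germ cell markers were well above background in ES cells, as were 27954 of 43379 spots on that array. Among them Tfap2c had 2210 units and Kit 994, while Dazl had 169 and Prdm1 135. The genes named here were picked after their values were seen.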
